A study of Homo sapiens with 6 samples.

Results

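The genes examined here are 8 that are commonly used to recognise human amnion or trophoblast, the tissues that surround the embryo and form the placenta. They are the transcription factor genes TFAP2A, TFAP2B, TFAP2C, GATA3 and TP63, the receptor and surface protein genes GABRP and VTCN1, and the hormone subunit gene CGA. The rule that chose them lists their names and uses no measured value, but the genes were chosen with earlier results of these data known. All 8 were found among the 37803 symbols listed once in both tables of expression values. Messenger RNA was sequenced from the human embryonic stem cell line H1 at day 2 of differentiation toward blood in custom mTeSR1 medium with activin A and BMP4. The 6 libraries were wild-type H1 (WT, n = 2) and H1 with SNAI1 deleted, in the groups SNAI1_KO_1 (n = 2) and SNAI1_KO_2 (n = 2). All groups received both factors. The labels give 40 ng/ml activin A and 50 ng/ml BMP4, and the methods of the study give these doses exchanged. The study made a pair of SNAI1 knockout lines with frameshift mutations, and the sources do not say whether the leading number in a sample title is the line. The study says in general that its analyses were repeated in independent experiments, without naming these libraries. Nothing states for these libraries that samples of a group came from separate cultures, so p-values measure only the spread between them.

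BMP4 can direct human pluripotent stem cells to mesoderm when activin or related signals are present, and to amnion-like or trophoblast-like cells when they are not. Both extraembryonic cell types are epithelia that express AP-2 transcription factors and GATA factors early, and add surface proteins, basal epithelial factors and hormones as they mature. The same AP-2 factors also work in surface ectoderm, neural crest and germ cell precursors, so none of the genes marks a single cell type. SNAI1 is a zinc-finger repressor of epithelial genes that binds the E-box CAGGTG. The question was whether knockout cells, in which epithelial genes were higher, also carried an extraembryonic profile.

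Values are FPKM, fragments counted per length of transcript and per mapped fragments of the library, a scale on which levels of different genes can be compared per length. Each table holds 1 library of every group and was normalized separately, so differences were taken within a table. FPKM summed to between 603399 and 633851 per library, and the absolute depth is unknown. SNAI1 itself was at 37.1 and 36.4 FPKM in WT and between 47.8 and 68.6 FPKM in the 4 knockout libraries, so its transcript does not check the labels. MIXL1, a primitive streak factor, was present in all groups, between 388.3 and 461.6 FPKM, and the pluripotency genes POU5F1 and LIN28A were also high. Of 7 primitive streak and mesoderm genes, described below, 2 were higher and 2 lower in the knockout libraries and 3 passed no test. The level of MIXL1 therefore does not show that the groups were in the same state.

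The extraembryonic genes did not move together. In the knockout libraries TFAP2A rose several-fold and GABRP rose from near 0 to a low level, whereas GATA3 fell and TFAP2C passed no test. TFAP2B, VTCN1, TP63 and CGA stayed below 0.2 FPKM in every library. A symbol was tested if its mean over the 6 libraries was at least 1 FPKM, which left 13909 symbols and 4 of the 8 genes. Taking both knockout groups together against WT, limma with Benjamini-Hochberg adjustment over all 13909 symbols called 2 of the genes higher, TFAP2A and GABRP, and 1 lower, GATA3. Over all symbols tested, 15.8% were called higher and 15.4% lower. All 4 knockout libraries lay above both WT libraries for 2 of the 4 tested genes and below them for 0, where 16.9% and 17.1% of all symbols did so. GABRP entered the test only through its knockout values, so these counts describe the genes that passed the filter and support nothing further. In bulk RNA, a change in the number of expressing cells and a change in RNA per cell cannot be told apart.

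**Figure D1:**
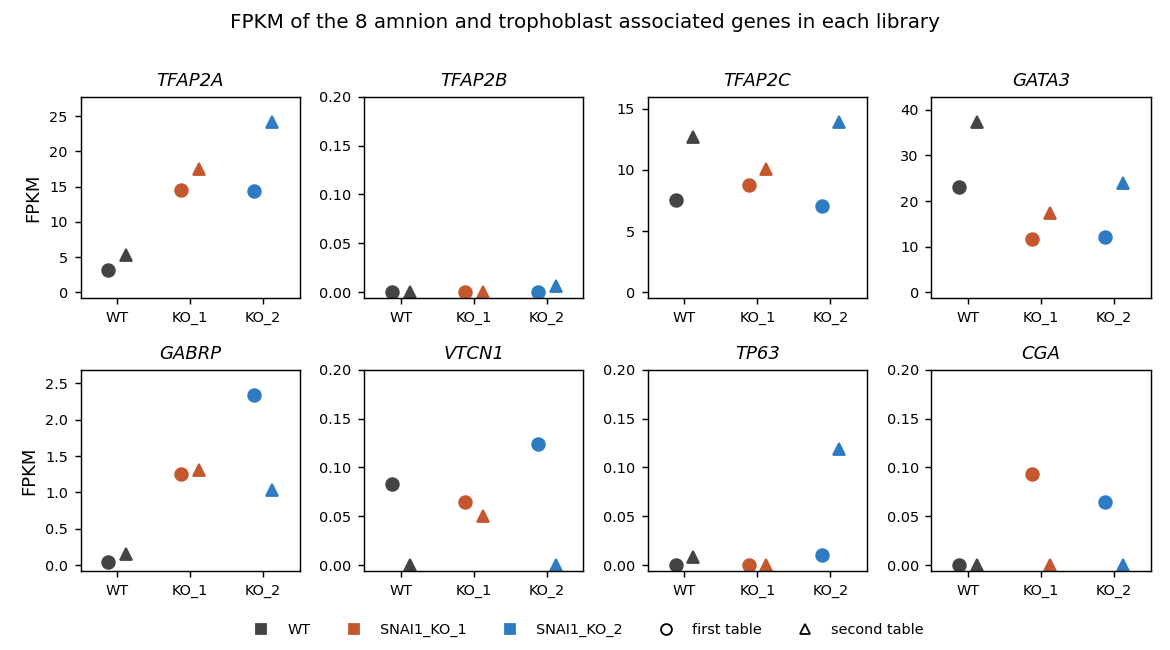
FPKM of each gene (vertical axis, linear, a separate scale for each gene) in the WT, SNAI1_KO_1 and SNAI1_KO_2 libraries, with circles for the first table and triangles for the second. TFAP2A and GABRP are higher in all 4 knockout libraries, GATA3 is lower than WT within each table, and the 4 genes drawn on a scale that ends at 0.2 FPKM stay near 0.

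TFAP2A, which encodes the AP-2 alpha factor of surface ectoderm, trophoblast, amnion and neural crest, rose in both knockout groups. The first table listed it at 3.22 FPKM in WT against 14.5 and 14.3 FPKM in SNAI1_KO_1 and SNAI1_KO_2, and the second at 5.36 against 17.5 and 24.1 FPKM. Every knockout library was above both WT libraries, by a factor of between 3.26 and 4.51 within a table. The difference of both knockout groups from WT on the log2(FPKM + 1) scale was 1.82 ± 0.12 (SE; limma, adjusted p 0.000584). Each knockout group passed by itself, SNAI1_KO_1 with a log2 difference of 1.71 and SNAI1_KO_2 with 1.92 (limma adjusted p 0.00153 and 0.0010). In each of these contrasts 3 of the 4 tested genes were called, TFAP2A, GATA3 and GABRP. Over all symbols, 23.9% were called for SNAI1_KO_1 and 25.5% for SNAI1_KO_2. GABRP passed the filter only through its knockout values, so this count too describes the tested genes and supports nothing further. The neighbouring antisense gene TFAP2A-AS1 was below the filter, at 0.0652 and 0.172 FPKM in WT and between 0.150 and 0.567 FPKM in the knockout libraries.

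TFAP2C, the AP-2 gamma factor of trophoblast and germ cell precursors, is a paralog of TFAP2A and passed no test. Against 7.55 FPKM in WT, the first table gave 8.78 FPKM for SNAI1_KO_1 and 7.09 for SNAI1_KO_2, and against 12.7 FPKM the second gave 10.1 and 13.9. The groups overlapped, and each knockout group was above WT in one table and below it in the other. The log2 difference was -0.02, with a 95% confidence interval from -0.41 to 0.37 (limma adjusted p 0.949), so a rise or fall within that interval remains possible. The sign of the difference turned under median-ratio scaling.

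The balance between these AP-2 paralogs was compared within each library, where the scaling of a library cancels. The ratio of TFAP2A to TFAP2C FPKM was 0.427 and 0.423 in the WT libraries. It was 1.66 and 1.73 in SNAI1_KO_1 and 2.02 and 1.74 in SNAI1_KO_2. TFAP2C was thus the more abundant of them in both WT libraries, and TFAP2A in all 4 knockout libraries. The mean log2 ratio was higher by 2.07 in the knockout libraries. This ratio was chosen after the values were seen and is given with no test. TFAP2B, the third AP-2 gene of the list and a marker of amnion, was listed at 0 in 5 libraries and at 0.00613 FPKM in SNAI1_KO_2 of the second table.

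**Figure D2:**
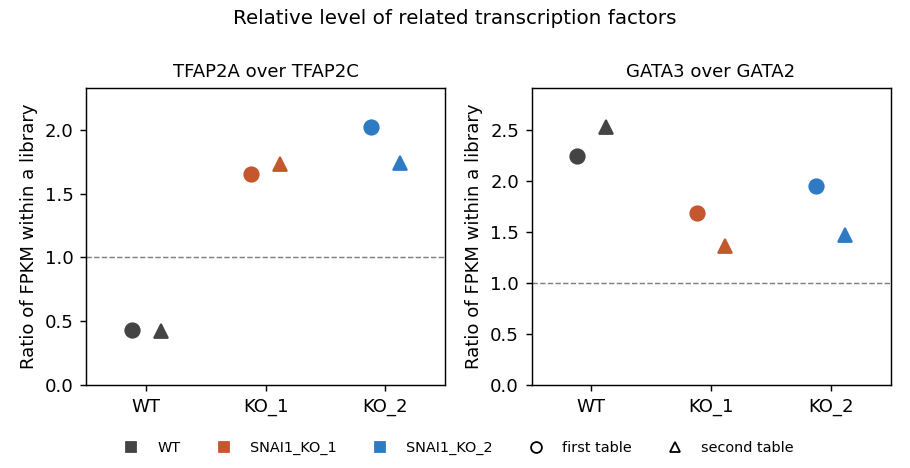
Ratio of FPKM within a library (vertical axis, linear) for TFAP2A over TFAP2C and for GATA3 over GATA2, by group, with circles for the first table, triangles for the second and a dashed line at a ratio of 1. TFAP2A over TFAP2C is 0.427 and 0.423 in WT and at least 1.66 in the knockout libraries, and GATA3 over GATA2 is above 1 in every library and highest in WT.

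GATA3, a zinc-finger factor that acts early in both trophoblast and amnion, changed in the opposite direction to TFAP2A. WT of the first table stood at 23.1 FPKM, with SNAI1_KO_1 at 11.6 and SNAI1_KO_2 at 12.2, and WT of the second at 37.3 FPKM, with the knockouts at 17.3 and 23.98. Within each table both knockout libraries were below WT, at between 0.464 and 0.643 of its level, although SNAI1_KO_2 of the second table was above WT of the first. The log2 difference was -0.87 ± 0.096 (SE; limma, adjusted p 0.00281). Without a term for the table the adjusted p was 0.234. SNAI1_KO_1 by itself passed, with a 95% confidence interval of its log2 difference from -1.28 to -0.72 (limma adjusted p 0.00387). SNAI1_KO_2 had a log2 difference of -0.74 (limma adjusted p 0.00878), a call lost on leaving out WT of either table (0.0744 for the first, 0.0660 for the second) or SNAI1_KO_2 of the first (0.0582). Neither single-group call of GATA3 held without the term for the table (0.292 for SNAI1_KO_1 and 0.441 for SNAI1_KO_2) or without the filter (0.0515 and 0.0684).

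GATA3-AS1, a noncoding gene that lies beside GATA3 on the other strand, fell as well, from 3.36 and 3.71 FPKM in WT to between 1.47 and 2.11 FPKM, with a log2 difference of -0.72 (limma adjusted p 0.0167). The library kit does not mark strand, so reads of a gene and of its antisense partner cannot be told apart where they overlap. GATA2, a related factor of trophoblast and blood progenitors, was 10.3 and 14.7 FPKM in WT and between 6.25 and 16.3 FPKM in the knockout libraries, with a log2 difference of -0.31 that did not pass (limma adjusted p 0.214). The ratio of GATA3 to GATA2 was 2.25 and 2.53 in WT and between 1.36 and 1.95 in the knockout libraries, likewise given with no test. GATA3 was the highest of the 8 genes in both WT libraries, and TFAP2A was higher than GATA3 in both knockout libraries of the first table. In the second table they were about level, at 17.5 and 17.3 FPKM in SNAI1_KO_1 and 24.1 and 23.98 FPKM in SNAI1_KO_2.

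GABRP, which encodes the pi subunit of the GABA-A receptor and is a marker of amnion cells, was near 0 in WT and low in the knockout libraries. WT was listed at 0.0415 and 0.149 FPKM, SNAI1_KO_1 at 1.26 and 1.31, and SNAI1_KO_2 at 2.34 and 1.03, with the first table given first. The groups did not overlap. The median FPKM of the symbols tested was between 9.95 and 10.2 per library, so GABRP stayed far below the level of a typical expressed gene. Its mean over the 6 libraries was 1.02 FPKM, just inside the filter of 1, and its WT mean was 0.095. The log2(FPKM + 1) difference was 1.16 ± 0.23 (SE; limma, adjusted p 0.0171), and this scale understates a change at such low levels. By itself SNAI1_KO_1 gave 1.06 and SNAI1_KO_2 gave 1.25 (limma adjusted p 0.0415 and 0.0246), and neither call held without the term for the table (0.124 and 0.0749) or without the filter (0.156 and 0.118). The call did not hold without the term for the table (adjusted p 0.0506), without the filter (0.0919), or on leaving out any one of 3 libraries, WT of the first table (0.131), WT of the second (0.0639) and SNAI1_KO_1 of the second (0.0584).

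**Figure D3:**
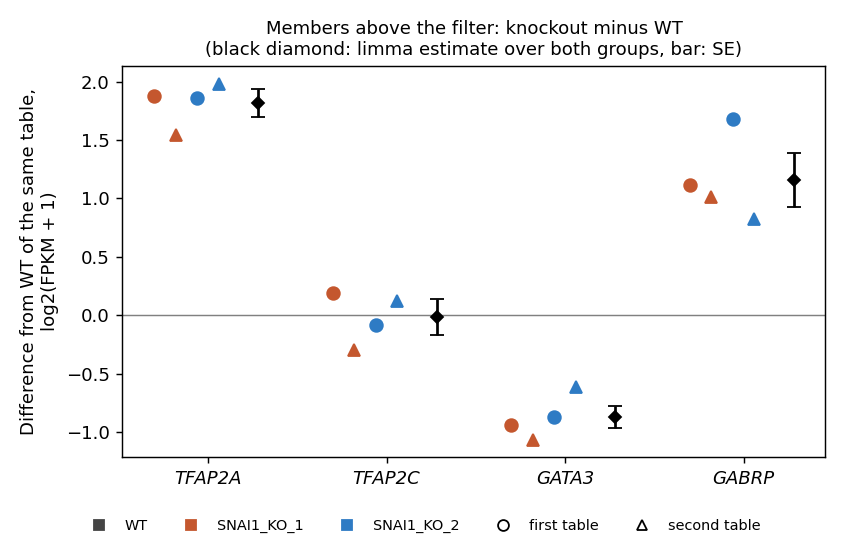
Difference of each knockout library from the WT library of its table on the log2(FPKM + 1) scale for the 4 genes above the filter, coloured by group, with the limma estimate over both groups as a black diamond and its SE as the bar. All 4 points lie above 0 for TFAP2A and GABRP, all 4 below 0 for GATA3, and on both sides of 0 for TFAP2C.

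The genes of later or other extraembryonic programs stayed at or near 0. VTCN1, a B7 family surface protein of amnion and trophoblast, was listed at 0.0827 and 0 FPKM in WT, 0.0647 and 0.0507 in SNAI1_KO_1, and 0.124 and 0 in SNAI1_KO_2. TP63, the p53 family factor of basal epithelia and cytotrophoblast, was highest in SNAI1_KO_2 of the second table, at 0.119 FPKM, and at most 0.0109 FPKM elsewhere. CGA, the alpha subunit shared by chorionic gonadotropin and the pituitary glycoprotein hormones, was 0.0934 and 0.0649 FPKM in the knockout libraries of the first table and listed at 0 in the other 4 libraries. Of the 24 values of these 3 genes and TFAP2B, 14 were listed at 0 and the highest was 0.124 FPKM. In a fit without the filter, over 30248 symbols above 0 in some library, their log2 differences were between 0.00 and 0.055 and their adjusted p between 0.458 and 0.958 by limma. No depth is known, so it cannot be said how many fragments lie behind these values.

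Between the knockout groups no difference passed the test. Of all symbols tested, 0% were called between SNAI1_KO_2 and SNAI1_KO_1, 521 of 13909 had an unadjusted p under 0.05, and 0 of the 4 genes did. The difference, SNAI1_KO_2 minus SNAI1_KO_1, ran from 0.07 for TFAP2C to 0.26 for GATA3. The 95% confidence interval for GATA3 was -0.02 to 0.54, so a difference within that interval remains possible.

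The sequence before the transcription start was searched for every member with a promoter window, because SNAI1 acts through CAGGTG. Printed below are 1 of the 2 windows of TFAP2A and that of GABRP, the members that rose. The window of CGA was added after the search, since it alone held CAGGTG. RefSeq promoter windows (GRCh38.p14) were found for 7 of the 8 genes, 13 windows in all, with TFAP2C not among them. The 250 bases before each start were searched on both strands for CAGGTG and for the AP-2 motif GCCNNNGGC, which reads the same on both strands. None of the 13 windows held both. Capitals mark CAGGTG or its reverse CACCTG. The windows are those of TFAP2A on the minus strand (chr6:10419660-10419909), GABRP on the plus strand (chr5:170783475-170783724) and CGA on the minus strand (chr6:87095107-87095356), each printed 5′ to 3′.
TFAP2A: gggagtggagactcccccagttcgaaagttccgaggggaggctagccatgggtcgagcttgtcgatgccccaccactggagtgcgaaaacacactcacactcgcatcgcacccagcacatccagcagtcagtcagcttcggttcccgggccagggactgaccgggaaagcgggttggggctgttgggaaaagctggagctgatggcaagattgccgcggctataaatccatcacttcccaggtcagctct
GABRP: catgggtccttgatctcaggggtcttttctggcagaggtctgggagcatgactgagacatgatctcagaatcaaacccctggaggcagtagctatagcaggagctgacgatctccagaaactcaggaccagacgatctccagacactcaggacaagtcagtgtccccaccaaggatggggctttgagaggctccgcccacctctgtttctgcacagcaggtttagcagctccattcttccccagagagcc
CGA: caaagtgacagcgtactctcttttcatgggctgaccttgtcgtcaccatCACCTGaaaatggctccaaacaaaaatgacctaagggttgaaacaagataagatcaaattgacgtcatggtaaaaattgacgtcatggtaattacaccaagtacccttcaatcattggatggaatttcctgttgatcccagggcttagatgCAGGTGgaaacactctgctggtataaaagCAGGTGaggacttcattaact

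CAGGTG was found in 1 of the 13 windows, that of CGA, which held 3 copies starting 201, 50 and 21 bases before the start. Among all 35116 RefSeq windows of this length, 17.5% held it. The 2 windows of TFAP2A and that of GABRP, the genes that rose, did not hold these letters, and CGA, which did, stayed near 0 in WT and knockout libraries alike. The AP-2 motif was in 4 of the 13 windows, those of VTCN1 and 3 of the 6 windows of GATA3, against 19.8% of all windows. These are matches of letters and not binding sites.

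The wider amnion and trophoblast programs were then described with lists written by hand. Over all 13909 symbols, the background for every list below, the median log2 difference was -0.05, with 15.8% called higher and 15.4% lower. Of 15 further amnion genes, 10 were tested, 6 were higher, 2 were lower and 2 did not pass, with a median of 0.46. IGFBP3, an insulin-like growth factor binding protein, was 0.813 and 0.495 FPKM in WT and between 20.7 and 25.0 FPKM in the knockout libraries, with a log2 difference of 3.85 (limma adjusted p 0.000139). TPM1, a tropomyosin of actin filaments, was higher by 0.85. HAND1, a factor of lateral mesoderm, amnion and trophoblast, moved the other way, from 241.5 and 200.9 FPKM in WT to between 47.2 and 66.4, and the matrix gene POSTN was lower by a log2 difference of -1.09. ISL1, an early amnion factor, was below the filter, at 1.82 and 1.04 FPKM in WT and between 0.187 and 0.597 FPKM in the knockout libraries.

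Of 34 further trophoblast genes, 33 were listed once in both tables and only 8 passed the filter, of which 4 were higher, 2 lower and 2 did not pass, with a median of 0.42. CDX2, a caudal factor of early trophoblast and of posterior mesoderm that is also in the amnion list, was 0.822 and 1.60 FPKM in WT and between 5.08 and 10.6 FPKM in the knockout libraries, with a log2 difference of 1.97 (limma adjusted p 0.00568). ENPEP, a surface aminopeptidase, and TEAD4, a trophoblast factor that was already 37.3 and 54.8 FPKM in WT, were higher by 1.29 and 0.60. PGF, the placental growth factor, fell from 12.2 and 11.97 FPKM in WT to between 3.38 and 4.71 FPKM. Many defining genes were at or near 0, with 21 of the 33 under 1 FPKM in every library. VGLL1, HAVCR1, XAGE2, PSG3, CGB3 and INSL4 were listed at 0 in all 6 libraries, and ELF5, the trophoblast stem cell factor, only reached 0.0163 FPKM in 1 library. KRT7, a keratin of both tissues, was 0.334 and 0.334 FPKM in WT and between 0.832 and 1.18 FPKM in the knockout libraries.

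Counted once each, the amnion and trophoblast lists held 16 tested genes, of which 9 were called higher, 4 lower and 3 did not pass. With no block for the table, 5 were higher and 3 lower, and without the filter 6 and 3. Over all symbols, these settings called 1065 of 13909 and 2139 of 30248 in either direction, against 4348 of 13909 as reported. A gene such as IGFBP3 whose WT mean was under 1 FPKM passed the filter only through its knockout values, and this held for 1 of the called genes in each of these lists.

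Genes of other epithelia were described in the same way. All 3 tested keratins of simple epithelia were higher, KRT8 from 397.6 and 440.5 FPKM in WT to between 1191 and 1355 FPKM. All 8 epithelial genes of a general list were higher, with a median log2 difference of 2.00, and CLDN4, a claudin of tight junctions, had a difference of 3.54. Their summed level was 238.8 to 280.3 FPKM in WT and 840.1 to 887.8 FPKM in the knockout libraries. In the surface ectoderm list 4 of 10 genes were tested and all 4 were higher, with GRHL3, a grainyhead factor, at 0.858 and 1.02 FPKM in WT and between 5.90 and 7.92 FPKM in the knockout libraries. For 2 of these 4, GRHL3 and OVOL1, the WT mean was under 1 FPKM, so they passed the filter only through their knockout values and had to be higher. Of its keratins, KRT5 reached 0.180 FPKM and KRT14 was listed at 0 in every library. In the neural crest list SOX9 and SOX10 were higher by 1.09 and 0.70 and ETS1 was lower by a log2 difference of -0.55, with 3 of 6 genes tested, and SOX9 too passed the filter only through its knockout values. The part of these epithelial changes in the rise of TFAP2A and GABRP was not tested.

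**Figure D4:**
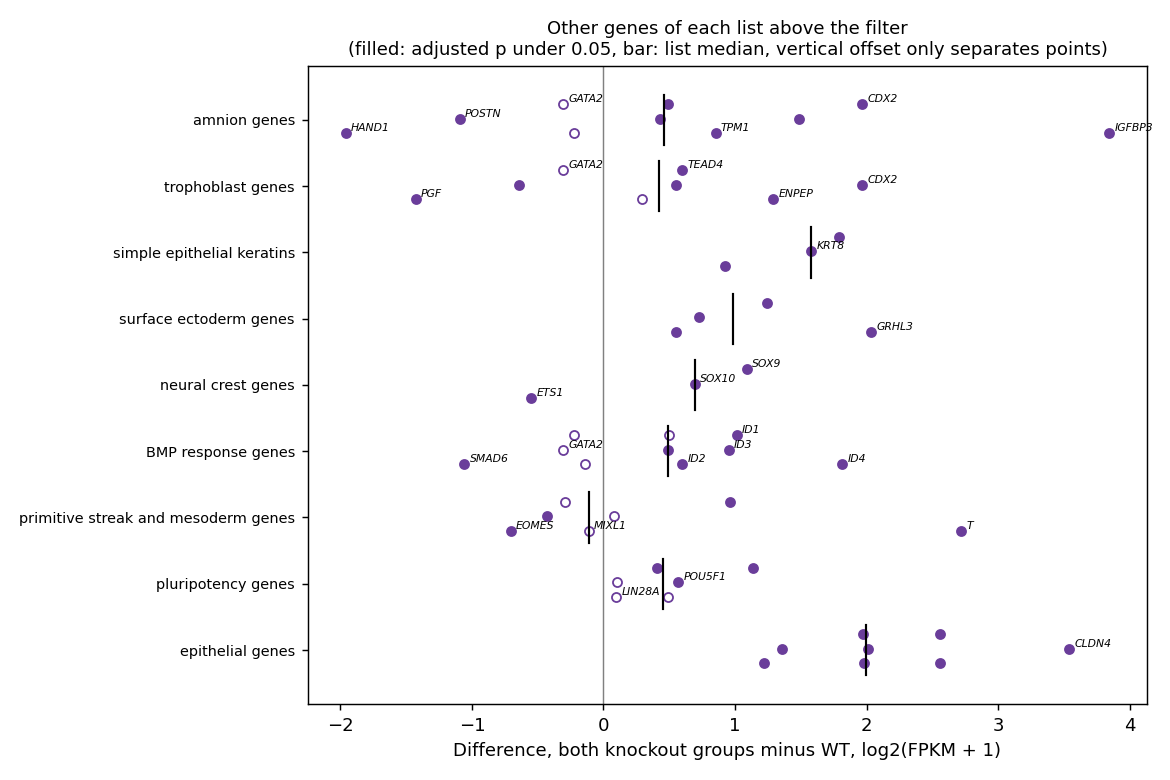
Difference of both knockout groups from WT on the log2(FPKM + 1) scale (horizontal axis) for the genes above the filter in each list, with filled points for an adjusted p under 0.05 by limma, a vertical bar at the list's median and symbols beside the genes named in the text. The amnion and trophoblast lists hold filled points on both sides of 0, with medians of 0.46 and 0.42, while every point of the epithelial, keratin and surface ectoderm lists lies above 0.

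Genes that read out BMP signaling and the mesoderm state were set beside the members. Of 10 BMP response genes 5 were higher, 1 was lower and 4 did not pass, with a median log2 difference of 0.49. ID1 to ID4, which encode inhibitors of helix-loop-helix factors, were all higher, with ID4 at 9.46 and 19.8 FPKM in WT and between 31.9 and 89.9 FPKM in the knockout libraries, while SMAD6, an inhibitor of the pathway, was lower by a log2 difference of -1.06. Of 7 primitive streak and mesoderm genes 2 were higher, 2 were lower and 3 did not pass, with a median of -0.11. T, the brachyury gene of the primitive streak, was 17.8 and 38.7 FPKM in WT and between 129.6 and 251.3 FPKM in the knockout libraries, a log2 difference of 2.72, and EOMES was lower by a log2 difference of -0.70. Of 6 pluripotency genes 3 were higher and 0 lower.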

How the data were processed

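RNA-seq values of 6 H1 libraries, deposited in 2 tables, were analysed. The authors deposited FPKM values per gene symbol; only the second table names the unit, and the values of the first have similar sums. GEO's processing notes name BWA, Bowtie, RSEM and hg19 without roles, and versions, annotation and strand setting were not given in the sources used here. Column names carry the group alone, and 0 other per-sample columns were present. Repeated symbols, 94 in one table and 340 in the other, were left out.

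Values were tested as log2(FPKM + 1) with limma 3.58.1 (R 4.3.3), with a mean for each group, the table as a block and a mean-variance trend, over 13909 symbols with a mean FPKM of at least 1, adjusted by the Benjamini-Hochberg method at a threshold of 0.05. The fit had 2 residual and 3.34 prior degrees of freedom and was tested on simulated data. The block rests on the shared tables, where table differences of the groups correlated at 0.616 to 0.676 across genes, which are not independent replicates. Relative to WT of its table, estimated depth from low FPKM values was 0.964 and 1.09 for SNAI1_KO_1 and 0.875 and 1.11 for SNAI1_KO_2. FPKM files hold no counts, so no counting interval is given. Alternatives were other pseudocounts, filters, scalings and groupings, no block, no trend, a log2 difference of at least 1 and leaving out each library.

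The 8 genes and all lists were chosen with earlier results of these data known. All 8 genes are named, and list genes are named as examples (the highest, the largest changes and, after their values were seen, other defining markers). Promoter letters come from RefSeq (GRCh38.p14) and carry no measurement. One gene of the amnion list is counted but not reported here by name.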

Additional observations from a re-analysis of the deposited data

How the results depend on the processing

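The log2 difference of TFAP2A passed the threshold under all 16 alternatives, with values from 0.94 (pseudocount of 10) to 2.03 and adjusted p of at most 0.0210 by limma. GATA3 passed in 14 of 16 and GABRP in 10 of 15, since GABRP could not be fitted with a mean FPKM of at least 5. Without the block for the table, only 1 of the 4 tested genes, TFAP2A, was called in each contrast against WT (1, 1 and 1). As reported, 3 were called in each. Calls among all 13909 symbols fell too, from 4348 to 1065 with the knockout libraries pooled. They fell from 3327 to 576 for the first knockout group and from 3549 to 698 for the second. The loss of calls was therefore not particular to these genes. Without the filter on low values 2 were called over both groups, against 1 in SNAI1_KO_1 and 1 in SNAI1_KO_2 taken singly. This alternative tested 30248 symbols and left out those at 0 in every library. Of these symbols it called 2139 with the knockout libraries pooled, and 1008 and 1216 in the single-group contrasts. For GATA3, a log2 difference of at least 1 was not reached (-0.87), which that limit imposes. GABRP depended on the pseudocount, with a log2 difference of 3.02 at 0.1 and 0.18 at 10. Leaving out 1 library at a time, the log2 difference of SNAI1_KO_2 ran from -0.90 to -0.58 for GATA3 and from 0.85 to 1.65 for GABRP. For TFAP2A it ran from 1.78 to 2.07. Some calls of GATA3 and GABRP were lost in these fits, as given above. The share of calls lost over all symbols was not counted, so such losses are not particular to these genes as far as known. TFAP2C, which never passed, changed sign to 0.027 under median-ratio scaling and ran from -0.16 to 0.13 on leaving out 1 library, with a positive sign in 3 of these fits (0.10, 0.06 and 0.13). The cause of these changes was not tested. Between the knockout groups 0 genes were called under all 16 alternatives. No scaling moved the median of all symbols by over 0.1 on the log2 scale. Absolute depth is unknown, which limits what can be said of the genes near 0.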

Other observations

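Because TFAP2C also acts in germ cell precursors and in the naive state of pluripotent cells, genes of both were described. Of 5 germ cell precursor genes 3 were tested. SOX17, which also marks endoderm, was higher by a log2 difference of 0.63 (limma adjusted p 0.0319), and PRDM1 and NANOS3 did not pass, with differences of 0.00 and 0.06. DPPA3 was below the filter, at 1.08 and 0.959 FPKM in WT and between 0.0414 and 0.107 FPKM in the knockout libraries. Of 7 naive pluripotency genes 2 were tested, SUSD2 was higher by 1.09 and KLF4 did not pass. KLF17 and DPPA5 were listed at 0 in every library. TFCP2L1, below the filter, was 0.122 and 0.213 FPKM in WT and between 0.584 and 0.995 FPKM in the knockout libraries. DNMT3L, below it too, was 0.0383 and 0.209 FPKM in WT and between 0.357 and 0.527 FPKM in the knockout libraries. DPPA3, lower as given above, is in this list as well.

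The symbols with the most similar profile were found for each tested gene by the root mean square distance between the 4 within-table log2 differences. For TFAP2A these were HAS3, HTR7 and PAK6, at distances of 0.083, 0.094 and 0.11, and 21 symbols lay closer than 0.2. For GATA3 they were CCND3, DOCK4 and TNFAIP3, with 61 symbols within that distance. For GABRP they were AC244153.1, ABHD6 and SVIP, with 10. For TFAP2C, which passed no test, they were LINC00869, FLJ20021 and VDAC1P8, with 1235 symbols that close. The 4 differences share the WT libraries, and the likeness is a description with no test.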
